A study of Mus musculus with 12 samples.

Results

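Cirbp and Rbm3, the genes of the mammalian cold-inducible RNA-binding proteins, were followed in mouse hippocampus. The members were all rows of the count files carrying either symbol, summed per gene and per transcript. This gave 2 of 23329 genes and 5 of 30383 transcripts, 1 of Cirbp and 4 of Rbm3, and both genes passed the filter on low counts with which 14131 genes were tested. Messenger RNA of the hippocampus of adult C57BL/6 mice was sequenced in wild type animals (WT) and in NONO knockout animals (KO), which lack the nuclear RNA- and DNA-binding protein NONO. Both genotypes carry libraries labelled CT10 and CT22, abbreviations that are not explained, with 3 libraries per group (WT CT10, KO CT10, WT CT22 and KO CT22). How the knockout allele was made is not stated in the sources used here. It is also not stated whether each library came from its own animal, so every p-value here refers to the spread among these libraries, part of which may be technical.

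CIRBP and RBM3 are small glycine-rich proteins with a single RNA recognition motif, a fold that binds single-stranded RNA. Their transcripts accumulate in mammalian cells under mild hypothermia and decline under mild warming, and in several tissues they follow the daily cycle of body temperature. CIRBP is known to bind the messenger RNA of core clock genes, and RBM3 is known for promoting local protein synthesis and synapse maintenance in cooled neurons. Heat shock genes, which encode chaperones under the control of HSF1, respond to temperature in the opposite direction.

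Cirbp lies on chromosome 10 on the plus strand, from 80167841 to 80171653 in mm10, and the files hold it as 1 transcript of 7 exons and 1256 bases, NM_007705. Its promoter is shown because it holds a copy of TCCCCGCC, an octamer known as a mild-cold response element, set in capitals. The 250 bases before the start site, from RefSeq on GRCm38.p6 (chr10:80167589-80167838, plus strand), read 5′ to 3′ as follows.
Cirbp promoter: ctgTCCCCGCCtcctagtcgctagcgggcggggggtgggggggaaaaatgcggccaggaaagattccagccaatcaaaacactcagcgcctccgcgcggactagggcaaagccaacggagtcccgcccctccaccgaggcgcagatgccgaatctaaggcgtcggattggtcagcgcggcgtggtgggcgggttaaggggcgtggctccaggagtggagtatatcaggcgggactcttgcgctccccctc
The octamer was found once, on the plus strand, at position -247 relative to the start site. Motifs were searched on both strands over 300 bases, 250 before the start and 50 after it, and 5.38% of 32851 RefSeq mouse promoter windows of this length held TCCCCGCC. GGGCGG, the core of the SP1 site, had 3 matches in the Cirbp window, and 35.7% of the windows held at least 1. CCAAT had 2 matches, and 37.4% of the windows held it. The E-box CACGTG, to which the clock activators bind (7.15% of windows), and GAANNTTC, a pair of heat shock element units (7.86% of windows), had 0 matches. These matches are descriptions of the letters, and no measurement here bears on binding. The RefSeq promoter table has no entry for Rbm3.

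Rbm3 lies on the X chromosome on the minus strand, from 8138975 to 8145802 in mm10, and its 4 transcripts have 7 exons each. They share the first 5 exons and differ at exon 6 and at the last exon. Exon 6 begins at 8143332 or, 3 coding bases later, at 8143329. The junction of exons 5 and 6 is shown because this choice separates the transcripts, with 30 bases on either side, 5′ to 3′ on the minus strand, from GENCODE transcripts on GRCm38. The capitals are the 3 bases that one form holds and the other lacks.
Rbm3 junction with the extra bases: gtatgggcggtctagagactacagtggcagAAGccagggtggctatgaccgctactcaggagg
Rbm3 junction without them: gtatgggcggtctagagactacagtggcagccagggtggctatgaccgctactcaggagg
The other end of exon 6 lies at 8143251 or, 4 bases further on, at 8143247. The last exon is a proximal one of 600 bases (8142356 to 8142955) in NM_001166409, NM_001166410 and NM_001166411. In NM_016809 it is a distal one of 2234 bases (8138975 to 8141208). Around the start of Rbm3 the GENCODE annotation has an antisense gene, Rbm3os (8145429 to 8147964), and the sources used here do not say if strand entered the counting, so reads of the pair cannot be told apart.

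The shallowest library was KO CT22 replicate 2, with 4435606 counts, and the deepest WT CT22 replicate 3, with 10911046. Nono was at 150.0 to 169.2 CPM (the count of a gene relative to the library total, scaled by TMM) in the 6 WT libraries and at no more than 0.672 CPM in any of the 6 KO libraries. All neuronal, glial and vascular marker lists were detected, with no marker at 0 in any library. Some libraries stood apart from their groups. Dbp, a clock output gene, was at 33.6 CPM in KO CT10 replicate 3 against 93.7 and 105.6 CPM in the other KO CT10 libraries, and at 90.9 CPM in KO CT22 replicate 1 against 32.3 and 32.9 CPM. Nr1d1, a clock repressor, was at 72.7 against 112.4 and 116.9 CPM, and at 124.6 against 67.0 and 72.4 CPM, in the same libraries. By these genes both libraries lay with the other CT label. They did so too by Arntl, a clock activator, at 39.5 CPM in KO CT10 replicate 3 against 26.0 and 28.6 CPM in its group. In KO CT22 replicate 1 Arntl was at 27.7 CPM against 40.3 and 38.2 CPM. Per3 was at 46.2 against 65.8 and 53.3 CPM, and at 68.7 against 48.0 and 39.9 CPM, in the same libraries. Nr1d2 was at 61.0 CPM in KO CT10 replicate 3 against 91.3 and 86.6 CPM in its group. In KO CT22 replicate 1 Nr1d2 was at 93.0 CPM against 59.6 and 56.9 CPM. Nfil3, Npas2 and Gm129 (Ciart) also lay with the other label in both libraries. Others, such as Per2 and Tef, did so only in part. Per2, a clock repressor, was at 48.6 CPM in KO CT10 replicate 3 against 50.1 and 44.5 CPM in its group. In KO CT22 replicate 1 Per2 was at 62.6 CPM against 48.2 and 48.1 CPM. Tef, a clock output gene, was at 422.2 CPM in KO CT10 replicate 3 against 410.2 and 444.8 CPM. Whether the CT labels of these libraries were exchanged was not tested, and each comparison by CT label depends on them. The summed level of 4 CA3 markers (Bok, Iyd, Pvrl3 and Cpne4) was lowest in WT CT22 replicate 1 (118.1 CPM) and KO CT22 replicate 3 (180.6 CPM), against 228.6 to 321.4 CPM elsewhere. Some results that rest on either pair are given with and without it, a choice made after the data were seen. Counts within gene lists are given for all libraries only.

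Per length, both members were among the more abundant hippocampal transcripts. The authors' TPM, a level that divides by transcript length, summed to 85.02 to 125.8 for Cirbp, with a median of 109.2 over the 12 libraries. For Rbm3 the TPM ran from 91.0 to 205.0 with a median of 141.7. These medians stood at the 88.5 and 91.6 percentiles of the 16389 genes above 0. Rbm3 was above Cirbp in 11 of the 12 libraries, with ratios of TPM from 0.96 to 1.74. The exception was KO CT22 replicate 2, the shallowest library, with 108.5 TPM for Rbm3 and 112.5 TPM for Cirbp.

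Cirbp levels ran from 39.1 to 59.3 CPM. In WT CT10 the 3 libraries had 57.0, 53.6 and 51.4 CPM, a mean of 54.0 ± 2.81 (SD, n = 3). In KO CT10 they had 59.3, 55.1 and 43.5 CPM (52.6 ± 8.19). The WT CT22 libraries had 40.0, 51.8 and 55.8 CPM (49.2 ± 8.21). The KO CT22 libraries had 58.0, 53.3 and 39.1 CPM (50.2 ± 9.83). The 4 groups overlapped, and the 3 lowest libraries (KO CT22 replicate 3, WT CT22 replicate 1 and KO CT10 replicate 3) came from 3 different groups. They lay apart from the other 9, which ran from 51.4 to 59.3 CPM. Ordered by level, each library's 95% exact Poisson interval overlapped that of the next, including the step from 43.5 CPM (39.2 to 48.1) to 51.4 CPM (46.2 to 57.1). The intervals cover counting error only. The highest library was 1.514 times the lowest. The coefficient of variation was 13.4%, at the 80.1 percentile of 2946 tested genes within 1.5-fold of its level, whose median was 9.42%.

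Rbm3 levels varied more. In WT CT10 the 3 libraries had 104.5, 90.7 and 78.6 CPM, a mean of 91.3 ± 12.98 (SD, n = 3). In KO CT10 they had 85.7, 70.6 and 62.1 CPM (72.8 ± 11.9). In WT CT22 the values were 51.0, 70.6 and 79.9 CPM (67.2 ± 14.8). In KO CT22 they were 91.7, 55.1 and 46.8 CPM (64.5 ± 23.9). The highest library was a WT CT10 library and the lowest a KO CT22 library, and the 4 groups overlapped one another. The highest library was 2.236 times the lowest. The coefficient of variation was 24.1%, at the 97.8 percentile of 2640 genes within 1.5-fold of its level, whose median was 8.94%. KO CT22 replicate 3 and WT CT22 replicate 1 were the lowest libraries for both members. Counts behind these levels were 238 to 609 per library for Cirbp and 246 to 915 for Rbm3.

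**Figure D1:**
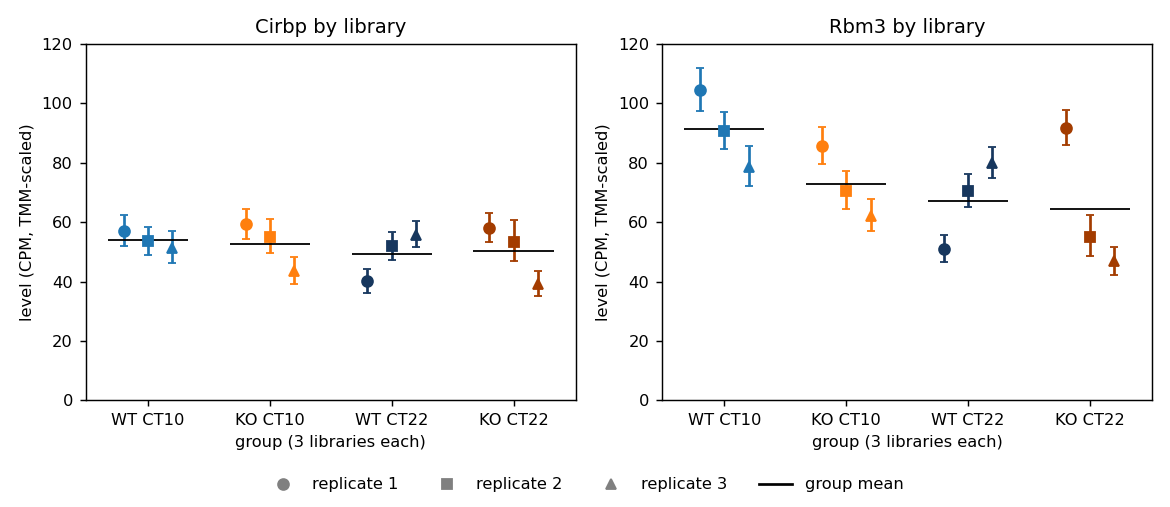
Levels of Cirbp (left) and Rbm3 (right) in CPM for each library, by group, with 95% Poisson intervals of the counts as bars and the group mean as a line. Cirbp lies between 39.1 and 59.3 CPM and Rbm3 between 46.8 and 104.5 CPM, with wide overlap between groups.

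KO against WT asks whether loss of NONO changed the members. Over both CT labels, Cirbp averaged 51.4 ± 8.20 CPM in KO and 51.6 ± 6.09 CPM in WT (SD, n = 6 each), a log2 difference of -0.01 (SE 0.11, 95% interval -0.24 to 0.23, edgeR adjusted p = 0.997). Rbm3 averaged 68.7 ± 17.5 CPM in KO and 79.2 ± 18.1 CPM in WT, a log2 difference of -0.19 (SE 0.18, interval -0.58 to 0.20, edgeR adjusted p = 0.880). Neither member passed the threshold of 0.05. The test called 3 of the 14131 genes, 0.0212%. Exact two-sided permutation tests of 6 libraries against 6 gave p = 0.965 for Cirbp and p = 0.323 for Rbm3. The authors' deposited table gives log2 ratios of -0.01 (p = 0.908) for Cirbp and -0.21 (p = 0.192) for Rbm3. At CT10 alone the Rbm3 log2 difference was -0.33 (SE 0.25, edgeR adjusted p = 1.00), where 0.00708% of genes were called. At CT22 it was -0.05 (SE 0.25, edgeR adjusted p = 0.960), where 0.0142% were called. Cirbp differed by -0.04 and 0.03 on the log2 scale at the same labels. Leaving out single libraries moved the Rbm3 difference over both labels from -0.37 (without KO CT22 replicate 1, unadjusted p = 0.0122 and adjusted p = 0.509 in edgeR) to -0.09 (without KO CT22 replicate 3). Where each group lost its library with most Ttr, a choroid plexus gene, the Rbm3 difference at CT22 turned to 0.30 (edgeR adjusted p = 0.823). At CT22 this left out WT CT22 replicate 3, with 79.9 CPM of Rbm3, and KO CT22 replicate 3, with 46.8 CPM. The latter was the lowest in Rbm3 and also low in CA3 markers (180.6 CPM), so choroid plexus and subfield markers cannot be told apart here. Markers of other tissue were higher in KO, none past the threshold: 10 of 10 for choroid plexus (median log2 difference 1.24), 7 of 8 for meninges (0.63) and 4 of 4 for blood (0.745). The summed choroid plexus level ran from 335.8 to 2064 CPM in WT CT10, 370.0 to 4813 in KO CT10, 395.3 to 2158 in WT CT22 and 230.2 to 5218 in KO CT22, with no marker at 0. The KO excess of Ttr lay in single libraries. Ttr was at 3334 CPM in KO CT10 replicate 1 and 3454 CPM in KO CT22 replicate 3, against 54.5 to 443.3 CPM in the other KO libraries. In WT it was at 1505 and 1461 CPM in replicate 3 of CT10 and CT22, against 71.7 to 252.4 CPM in the others. The part of the choroid plexus, meninges and blood markers in the Rbm3 values was not tested beyond the exclusion by Ttr.

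The difference between these KO effects was 0.28 for Rbm3 (SE 0.35, edgeR adjusted p = 0.838) and 0.06 for Cirbp (SE 0.22, edgeR adjusted p = 0.954), both on the log2 scale. That test called 0 genes, 0.0%, by edgeR and by DESeq2, with 861 genes at an unadjusted p under 0.05 in edgeR. Without KO CT10 replicate 3 and KO CT22 replicate 1 the sign turned for both members, to -0.19 for each.

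CT22 against CT10 asks whether the members differed between the sampling labels. Rbm3 averaged 65.8 ± 17.8 CPM at CT22 and 82.0 ± 15.1 CPM at CT10 (SD, n = 6 each), a log2 difference of -0.30 (SE 0.18, 95% interval -0.69 to 0.09, unadjusted p = 0.115 and adjusted p = 0.991 in edgeR). Cirbp averaged 49.7 ± 8.12 and 53.3 ± 5.53 CPM, a log2 difference of -0.10 (SE 0.11, interval -0.34 to 0.14, edgeR adjusted p = 0.991). Neither passed, and the exact permutation test gave p = 0.121 for Rbm3 and p = 0.351 for Cirbp. The edgeR test called 0 of the 14131 genes, 0.0%, with 549 at an unadjusted p under 0.05, and DESeq2 called 1. In WT alone the Rbm3 log2 difference was -0.44 (SE 0.25, edgeR adjusted p = 0.730) and that of Cirbp -0.13 (edgeR adjusted p = 0.841). In KO alone they were -0.16 and -0.07. Within either genotype edgeR called 0 genes, 0.0%, with 955 (WT) and 447 (KO) at an unadjusted p under 0.05, and DESeq2 called 4 and 0.

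The size of the Rbm3 difference between the labels depended on which libraries were included. Without KO CT10 replicate 3 and KO CT22 replicate 1, whose clock genes lay with the other label, Rbm3 averaged 60.7 CPM at CT22 and 86.0 CPM at CT10. The log2 difference was then -0.53 (SE 0.13, unadjusted p = 0.00126 and adjusted p = 0.176 in edgeR), and the exact permutation test of 5 libraries against 5 gave p = 0.0317. The CT10 and CT22 groups still overlapped. The libraries left out were the lowest CT10 library (62.1 CPM) and the highest CT22 library (91.7 CPM) in Rbm3. Leaving them out could thus only widen the difference, and the p-values do not account for this choice. In the KO libraries left, the Rbm3 difference was -0.63 (edgeR adjusted p = 0.627), with 85.7 and 70.6 CPM at CT10 and 55.1 and 46.8 CPM at CT22. These did not overlap, as was so for 17.6% of all genes in that direction. Cirbp differed by -0.23 over both genotypes (edgeR adjusted p = 0.471), with 48.0 and 55.3 CPM and an exact permutation p of 0.111.

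Leaving out WT CT22 replicate 1 and KO CT22 replicate 3 instead, which were low in CA3 markers, brought the Rbm3 difference to -0.12 (edgeR adjusted p = 0.998) and that of Cirbp to 0.04. Over 21 alternatives the Rbm3 difference ran from -0.53 to -0.12, and its lowest adjusted p was 0.176. The direction was the same in each of them for Rbm3 and in all but 1 for Cirbp.

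**Figure D2:**
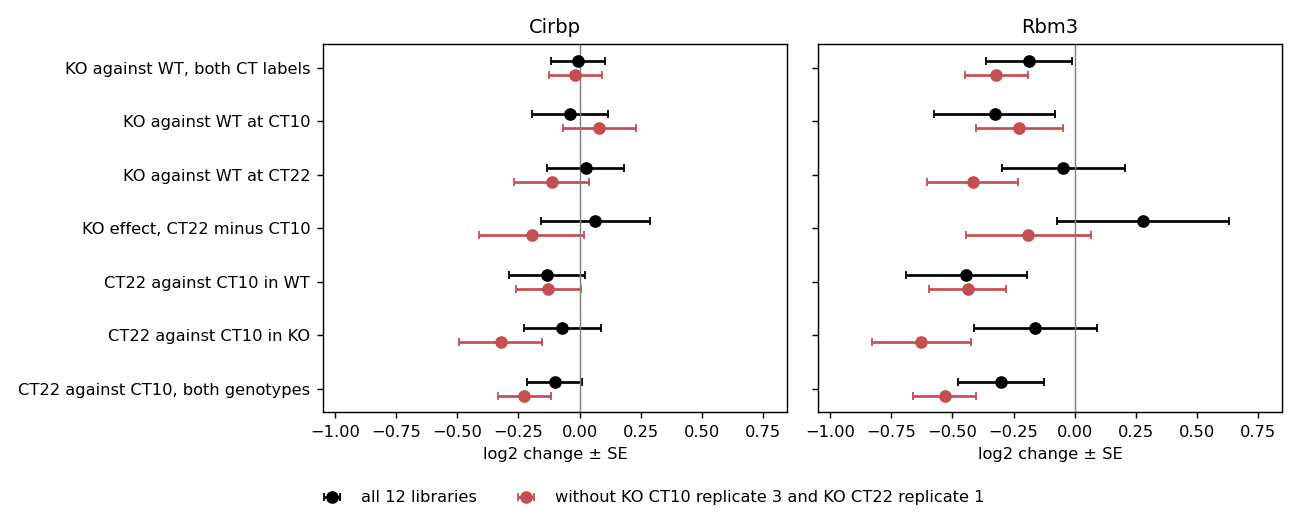
Log2 changes ± SE of Cirbp (left) and Rbm3 (right) in the contrasts of genotype and CT label, with all 12 libraries and without KO CT10 replicate 3 and KO CT22 replicate 1. The Rbm3 difference of CT22 from CT10 moves from -0.30 to -0.53 when these libraries are left out.

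Dentate gyrus markers were lowest, and neocortical markers high, in the libraries lowest for both members. The subfield and neocortical markers were chosen after their values were seen, so this is a description. In WT CT22 replicate 1 and KO CT22 replicate 3, lowest for both members, the 7 dentate gyrus markers summed to 313.1 and 336.1 CPM, the lowest of the 12 libraries. They were highest at 775.4 CPM in KO CT22 replicate 1, where Rbm3 was the second highest. The 4 neocortical markers summed to 105.5 to 128.5 CPM in WT CT22 replicate 1, KO CT10 replicate 3, KO CT22 replicate 3 and KO CT22 replicate 2, the 4 libraries with the lowest Rbm3, and to 66.2 to 86.8 CPM in the other 8. Summed endothelial markers were 149.5 to 175.7 CPM in WT CT10 and 189.9 to 233.2 CPM in WT CT22, and summed neuronal markers 6360 to 6971 and 5680 to 6161 CPM. Of all single genes, 7.69% were higher and 8.54% lower at CT22 in WT without overlap, so such a separation was common. In WT, 6 endothelial markers were higher and 0 lower at CT22, and 3 neuronal markers were higher and 5 lower. In KO the labels overlapped, with 159.8 to 194.1 CPM at CT10 and 177.6 to 207.1 CPM at CT22 for endothelial markers, and 6251 to 6918 and 6095 to 6834 CPM for neuronal ones. No defining marker of these lists was at 0 in any library. The part of tissue composition in the levels of Rbm3 and Cirbp was not tested, and in whole tissue fewer cells of a type cannot be told apart from less RNA per cell.

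Cirbp and Rbm3 were high and low in the same libraries. Over the 12 libraries the log2 CPM of the members had Pearson's r = 0.827 (permutation p adjusted over 3 relations = 0.00129) and Spearman's rho = 0.839 (adjusted permutation p = 0.00159). As deviations from the group means, r was 0.869 (exact permutation p = 0.0054 over 1296 rearrangements within groups). Without the 2 libraries farthest from the Rbm3 median, WT CT22 replicate 1 and KO CT22 replicate 3, r was 0.596 (permutation p = 0.0662) and rho 0.721. Within the 9 libraries left after the 3 lowest in Cirbp were set aside, r was 0.519 (exact permutation p = 0.151) and rho 0.667 (exact permutation p = 0.0589). The relation was thus weaker without the low libraries, which were set aside by the members' own values, and this narrows the range compared. The 3 libraries lowest in Cirbp had low CA3 markers or high neocortical markers. KO CT22 replicate 2, also with high neocortical markers (105.5 CPM), had 53.3 CPM of Cirbp. The part of these markers in the relation was not tested. WT libraries alone gave r = 0.920 and KO libraries alone r = 0.823.

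Heat shock genes ran opposite to both members across the libraries. A heat shock score was taken per library by centring the log2 CPM of each of 20 genes and averaging them. It was lowest in KO CT10 replicate 1 (-0.20) and KO CT22 replicate 1 (-0.19), and highest in KO CT22 replicate 3 (0.18) and WT CT22 replicate 1 (0.16). With Rbm3 the score had r = -0.825 and rho = -0.832 (adjusted permutation p = 0.00129 and 0.00159). With Cirbp it had r = -0.808 and rho = -0.818 (adjusted permutation p = 0.00129 and 0.00159). As deviations from the group means, r was -0.884 for Rbm3 and -0.819 for Cirbp (exact permutation p = 0.00231 and 0.0185).

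The relations with the score kept their sign when libraries were left out. Without the 2 libraries farthest from the score's median, KO CT10 replicate 1 and KO CT22 replicate 1, r was -0.842 for Rbm3 (permutation p = 0.00308) and -0.771 for Cirbp (permutation p = 0.0102). Leaving out WT CT22 replicate 1 and KO CT22 replicate 3 gave -0.707 for Rbm3 (permutation p = 0.0230) and -0.694 for Cirbp (permutation p = 0.0136). Within the 9 libraries of higher Cirbp, r was -0.645 for Rbm3 (exact permutation p = 0.0578) and rho -0.700 (exact permutation p = 0.0433). For Cirbp r was -0.687 (exact permutation p = 0.0457) and rho -0.667 (exact permutation p = 0.0589). In the 2 libraries with the highest score the CA3 and dentate gyrus markers were lowest. KO CT10 replicate 1, with the lowest score, had 252.7 CPM of CA3 markers and 86.8 CPM of neocortical markers, both mid-range. Its dentate gyrus markers, at 501.8 CPM, were at rank 3 from the highest. KO CT22 replicate 1, with the next lowest score, had the highest CA3 (321.4 CPM) and dentate gyrus markers (775.4 CPM). Its neocortical markers, at 69.4 CPM, were at rank 11 from the highest. The part of these markers in the relations was not tested.

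**Figure D3:**
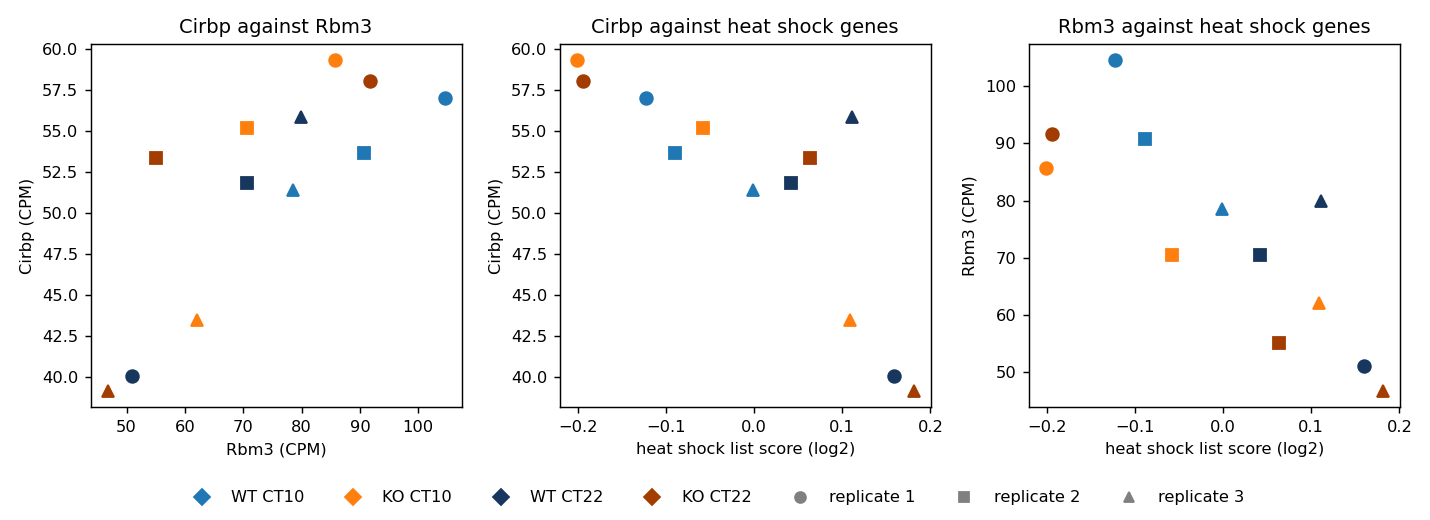
Each point is 1 of the 12 libraries, coloured by group and shaped by replicate number: Cirbp against Rbm3 (left, CPM), and Cirbp (middle) and Rbm3 (right) against the heat shock list score (log2). KO CT22 replicate 3 and WT CT22 replicate 1 lie at the low end of both members and the high end of the score.

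Gene by gene, 18 of the 20 heat shock genes correlated negatively with Rbm3, and 18 of 20 with Cirbp. The median r was -0.565 with Rbm3 and -0.577 with Cirbp, against 0.00811 and 0.00311 over the other 14130 genes, of which 49.3% and 49.7% were negative. These values across libraries are descriptions and share the same 12 libraries. The small chaperone Hspb1 had r = -0.893 with Rbm3, and was at 4.60 CPM in WT CT10 replicate 1, the library highest in Rbm3, and at 13.3 and 12.6 CPM in the 2 libraries lowest in it. Stip1, which links HSP70 to HSP90, had r = -0.855 with Rbm3. The HSP40 co-chaperone Dnajb1 had r = -0.828 with Rbm3 and -0.868 with Cirbp, and ran from 46.2 CPM in KO CT10 replicate 1 to 74.3 CPM in KO CT22 replicate 3. Hsph1, an HSP110, had -0.817 with Cirbp. The mitochondrial co-chaperonin Hspe1 was the exception for both (0.248 and 0.222). Hspa1a and Hspa1b are near-identical copies whose reads were divided by estimation, so their single values are uncertain.

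**Figure D4:**
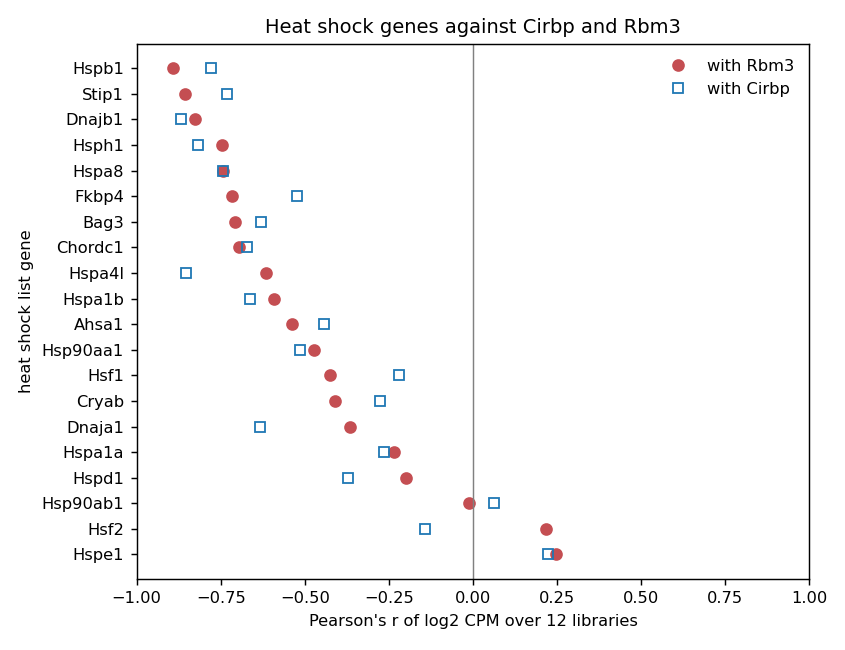
Pearson's r of log2 CPM over the 12 libraries between each of 20 heat shock genes and Rbm3 (filled circles) or Cirbp (open squares). The points run from -0.893 to 0.248, and 18 of 20 lie below 0 for each member.

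Between the groups, 0 of the 20 heat shock genes passed the edgeR threshold in any of the 7 contrasts. From CT10 to CT22 in WT, 19 were higher and 1 lower, with a median log2 difference of 0.12 against -0.000104 over all genes tested, and 4 had an unadjusted p under 0.05, as had 6.76% of all genes. In KO, 11 were higher and 9 lower, with a median of 0.03. Averaged over both genotypes, 16 were higher and 4 lower. The 3 most abundant differed little between the labels: Hspa8, the constitutive HSP70, by 0.08 (SE 0.09), Hsp90ab1 by 0.002 (SE 0.06) and Hsp90aa1 by 0.03 (SE 0.06) on the log2 scale. For KO against WT over both labels, 8 were higher and 12 lower, with a median of -0.03 against 0.01 over all genes. At CT10, 13 were higher and 7 lower (median 0.06), and at CT22, 4 were higher and 16 lower (median -0.08). The difference of these KO effects was above 0 for 5 and below 0 for 15 (median -0.16), with 0 at an unadjusted p under 0.05.

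Other genes of the pathway also gave 0 calls by edgeR in any of the 7 contrasts. Of 10 regulators and targets, 9 were tested, and KO against WT had 7 higher and 2 lower with 0 at an unadjusted p under 0.05, which 6.35% of all genes reached (897 of 14131). Ntrk2, the BDNF receptor TrkB linked to Rbm3 induction, differed by -0.05 (SE 0.07), and Rtn3, whose translation RBM3 is known to promote, by -0.004 (SE 0.05), both on the log2 scale. Hnrnph1, which encodes a splicing regulator of Rbm3, differed by 0.002 (SE 0.05). Of 17 splicing kinases and SR proteins linked to temperature, 7 were higher and 10 lower in KO, with 2 at an unadjusted p under 0.05. Of 14 other proteins with RNA recognition motifs, 7 were higher and 7 lower, with 1 at an unadjusted p under 0.05. At CT10, 2 of these 14 were higher and 12 lower in KO, and at CT22, 10 were higher and 4 lower. The difference of the KO effects was above 0 for 13 and below 0 for 1, with 2 at an unadjusted p under 0.05 (6.09% of all genes). The abundant Hnrnpa2b1 differed by 0.04 (SE 0.06). Of 19 clock genes, 11 were higher and 8 lower, with 0 at an unadjusted p under 0.05.

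Rbm3 reads were divided among its transcripts in similar shares in most libraries. NM_001166410, with the proximal last exon and neither extension of exon 6, took 53.8% of the Rbm3 count on average (47.8% to 62.3% over the 12 libraries). NM_001166409, with both extensions, took 23.3% (4.29% to 30.3%). NM_001166411, with the 4 extra bases alone, took 13.2% (5.81% to 26.3%). NM_016809, with the extra 3 bases and the distal last exon, took 9.75% (4.11% to 19.9%). Transcripts with the 3 bases AAG at the junction shown above took 30.4% to 39.6% of the count in 11 libraries. In KO CT22 replicate 2, which had 246 Rbm3 counts, they took 14.7%. All shares are of counts not divided by length. NM_016809 has 2900 bases against 1263 to 1270 in the others, so its count share exceeds its share of molecules. The AAG share is thus not a measure of splice-site use. The proximal transcripts differ by 3 to 7 bases, so the division among them rests on few reads and is uncertain.

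The share of the distal form was highest in the libraries lowest in Rbm3. NM_016809 made up 19.9% in WT CT22 replicate 1 and 16.6% in KO CT22 replicate 3, against 4.11% to 10.6% in the other 10. Its level was 10.3 CPM in WT CT22 replicate 1, the highest of the 12, and 7.72 CPM in KO CT22 replicate 3, below WT CT10 replicates 2 and 3 (8.34 and 8.38 CPM). NM_001166410 was at 25.4 and 24.2 CPM in these libraries, its lowest levels. Over 8 share tests, 0 passed: the lowest exact permutation p was that of NM_001166411, with 15.8% ± 5.70 in KO and 10.6% ± 3.36 in WT (SD, n = 6 each; exact p = 0.0584, adjusted 0.468). Its KO mean includes 26.3% in KO CT22 replicate 2, with 246 Rbm3 counts, where NM_001166409 took 4.29%. The other KO libraries ran from 9.64% to 16.3% for NM_001166411. NM_016809 made up 11.7% ± 5.34 at CT22 and 7.84% ± 2.28 at CT10 (exact permutation p = 0.173, adjusted 0.468). Its CT22 mean includes the 19.9% and 16.6% given above, and the other CT22 libraries ran from 7.27% to 10.4%. In a fit over 18021 transcripts, the level of NM_016809 differed between KO and WT by -0.48 on the log2 scale (SE 0.19, unadjusted p = 0.0292 and adjusted p = 0.847 in edgeR), and no transcript of either member passed in any contrast.

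**Figure D5:**
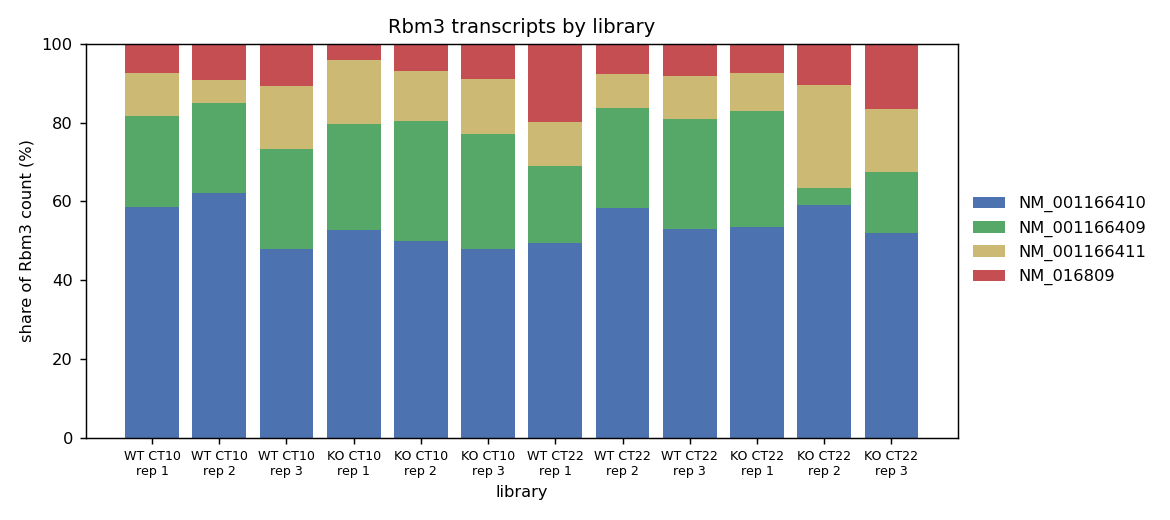
Share of the Rbm3 count (%) assigned to each of its 4 transcripts, 1 bar per library. The distal transcript NM_016809 takes 19.9% and 16.6% in WT CT22 replicate 1 and KO CT22 replicate 3, and NM_001166409 takes 4.29% in KO CT22 replicate 2.

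The genes most like each member were sought among the 10192 genes of at least 10 CPM, by Pearson's r of log2 CPM over the 12 libraries, as a description. For Cirbp they were Wdr61 (r = 0.931), Hmgn2 (0.919), a nucleosome-binding protein, Wipf3 (0.909), Inf2 (0.907), a formin, and Rpl22 (0.905), a ribosomal protein. The most opposite named genes were Myadm (-0.951), Arhgap26 (-0.913) and Btbd11 (-0.911). Rbm3 stood at rank 59 in likeness to Cirbp. For Rbm3 the most alike were Parn (0.945), a poly(A) ribonuclease, Galns (0.933), a lysosomal sulfatase, Gpcpd1 (0.929), Abi1 (0.929) and Nrn1 (0.927), the neuronal protein neuritin. The most opposite were Slc5a3 (-0.945), a myo-inositol transporter, Cacna2d2 (-0.942) and Akap12 (-0.942). Cirbp stood at rank 119 in likeness to Rbm3. Wipf3 was at 373.4 and 351.7 CPM and Nrn1 at 146.9 and 157.8 CPM in WT CT22 replicate 1 and KO CT22 replicate 3, their lowest libraries, so these lists share the libraries with low CA3 markers.

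Midn, Wdr13 and Tbc1d25, which lie next to the members, did not follow them closely. Midn, upstream of Cirbp, had r = -0.423 with it. Wdr13 and Tbc1d25, on either side of Rbm3, had r = 0.456 and 0.359 with it. In KO against WT, Wdr13 differed by -0.13 on the log2 scale (SE 0.06, edgeR adjusted p = 0.752), Tbc1d25 by 0.02 (SE 0.10) and Midn by 0.06 (SE 0.09), and 1600002K03Rik, on the other side of Cirbp, by 0.01 (SE 0.20). None of the 4 passed in any contrast. No r was computed for 1600002K03Rik, which averaged 2.32 CPM.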

How the data were processed

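The 12 libraries were grouped by genotype and CT label from the sample titles. The submitters' processing notes name the build mm10 and the tools RSEM 1.2.5, TopHat 1.3.3, edgeR 3.0.6 and FastQC. The kit marks strand, per the labels' protocols, and reads were paired or single, not assigned to libraries. Per the file headers, each deposited file holds estimated counts and TPM per transcript. A table deposited by the authors compares KO with WT per gene by log2 ratio and p-value, the latter also adjusted, and holds a scaled signal per library, which was not used.

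Estimated counts were summed per gene and rounded to whole numbers. Genes were filtered (filterByExpr, minimum count 10), scaled by TMM (factors 0.979 to 1.021) and fitted with 4 group means in edgeR 4.0.16 (R 4.3.3, robust quasi-likelihood test, 8 residual degrees of freedom, biological coefficient of variation 12.3%), with Benjamini-Hochberg adjustment over 14131 genes and a threshold of 0.05. The steps were tested on simulated data. Relations used 100000 permutations. Two-sided exact permutation tests compared means of CPM or shares in scipy 1.17.1. Transcripts were tested in a separate edgeR fit. Alternatives were DESeq2 1.42.0, other scaling, no filter, a replicate block, fits of fewer libraries and leaving libraries out.

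The members and gene lists were chosen with earlier results of these data known. Named genes were the members, Nono, the neighbours, the 5 genes most like each member and the 3 least like, and the 3 most abundant genes of a list. Other named heat shock, clock and choroid plexus genes, and the subfield and neocortical markers, were chosen after their values were seen. In the lists, 3 genes were matched by older symbols. Every per-sample column matched a title (0 unmatched).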

Additional observations from a re-analysis of the deposited data

Results flagged for a closer look

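Among 24 groups of 6 libraries, sample values of 2 lay apart by Dixon's test (critical value 0.625), and chance flags about 1 in 20 groups. Both were in WT CT22 replicate 1. Its Cirbp level of 40.0 CPM was the lowest of the 6 WT libraries, with a gap to the next of 0.671 of the range. Its NM_016809 share of 19.9% of the Rbm3 count was the highest of the 6 WT libraries, with a gap of 0.740 of the range. The same library had the lowest summed CA3 (118.1 CPM) and dentate gyrus (313.1 CPM) markers and the highest neocortical markers (128.5 CPM), and their part in these values was not tested.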

How the results depend on the processing

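No alternative brought a member past the threshold in any contrast. Depth limits Rbm3 and its transcripts most in KO CT22 replicate 2, with 246 Rbm3 counts. Cirbp differences near 0 changed sign easily, and the cause was not tested. Cirbp transcript shares were not compared, since the files hold 1 transcript. Of the comparisons of members with an alternative, 258 kept their direction and side of the threshold and 34 changed sign; for transcript shares these were 103 and 9.

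Leaving out each library in turn gave log2 ranges for Cirbp of -0.077 to 0.069 (KO against WT), -0.13 to 0.083 (at CT10), -0.12 to 0.18 (at CT22), -0.08 to 0.21 (difference of the KO effects), -0.24 to 0.0003365 (CT22 against CT10 in WT) and -0.21 to 0.085 (in KO). For Rbm3 the ranges were -0.37 to -0.090 (KO against WT), -0.59 to -0.27 (CT22 against CT10 in WT), -0.42 to 0.15 (KO against WT at CT22), -0.09 to 0.47 (difference of the KO effects) and -0.53 to 0.034 (CT22 against CT10 in KO). In percentage points, shares ranged from -2.99 to 2.22 (NM_001166409) and -2.95 to 0.454 (NM_016809) for KO against WT, and from -0.0470 to 2.84 (NM_001166410) and -1.39 to 2.15 (NM_001166411) for CT22 against CT10. Numbers of called genes ranged from 1 to 8 (KO against WT), 1 to 4 (at CT22) and 0 to 1 (CT22 against CT10 in WT). The r of Cirbp with Rbm3 ranged from 0.750 to 0.915.

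Without KO CT10 replicate 3 and KO CT22 replicate 1, Cirbp was at 0.080 (KO against WT at CT10), -0.11 (at CT22), -0.19 (difference of the KO effects), -0.32 (CT22 against CT10 in KO) and -0.23 (over both genotypes), and Rbm3 at -0.19 (difference) and -0.63 (CT22 against CT10 in KO). The share of NM_001166409 differed by -4.86 points for KO against WT and that of NM_001166411 by 2.18 points for CT22 against CT10. Called genes were then 1 for KO against WT, 1 at CT22, 1 for CT22 against CT10 in WT, 1 in KO and 9 over both genotypes. Without WT CT22 replicate 1 and KO CT22 replicate 3, Cirbp was at 0.0047 (KO against WT), 0.00046 (CT22 against CT10 in WT), 0.086 (in KO) and 0.043 (over both), Rbm3 at 0.038 (in KO), and KO against WT had 8 called genes. Cirbp with Rbm3 then had r = 0.596. Without the 3 libraries lowest in Cirbp, r was 0.519 for that relation and -0.645 for Rbm3 with the heat shock score. Where each group lost its library with most Ttr, a choroid plexus gene, Cirbp was at 0.057 (KO against WT) and 0.18 (CT22 against CT10 in KO), Rbm3 at 0.30 (KO against WT at CT22) and 0.17 (CT22 against CT10 in KO), and 1 gene was called for KO against WT and 1 at CT22. These 4 exclusions were chosen after seeing the data.

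DESeq2 called 22 genes for KO against WT, 3 at CT10, 30 at CT22, 4 for CT22 against CT10 in WT and 1 over both genotypes, against 3, 1, 2, 0 and 0 in edgeR. With no filter on low counts 10 genes were called for KO against WT. Fits of the 6 libraries compared called 4 at CT10, 1 at CT22 and 2 for CT22 against CT10 in WT. As transcript levels in place of shares, NM_001166411 and NM_001166410 were both at -0.28 on the log2 scale for CT22 against CT10. The replicate block called 1 gene for KO against WT and 1 at CT22 and no member: Rbm3 was at -0.22 (edgeR adjusted p = 0.869) and Cirbp at -0.02 (edgeR adjusted p = 0.987) for KO against WT. Same-numbered libraries showed no common deviation from their group means (r from -0.237 to 0.328 over 18 pairs, 4 of them over 0.1). Of the 12 libraries, 4 correlated best with their own number. These values gave no sign that the numbers pair the samples. They cannot exclude it, since differences such as those in Ttr and CA3 markers also enter the deviations.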
